A study of Mus musculus with 26 samples.

Results

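The genes described here are 4 members of the SOCS family (suppressors of cytokine signalling), namely Socs1, Socs2, Socs3 and Cish, followed in S49 cells, a mouse T-lymphoma line. They were taken by name: every probe set whose single gene symbol in the platform's annotation was one of these 4 was used, and the rule reads names only. This gave 7 of 22626 probe sets and 4 of 12393 named genes, with 3 probe sets for Socs3, 2 for Socs2 and 1 each for Socs1 and Cish. The study followed messenger RNA over time after a cyclic AMP (cAMP) analog was added. Wild-type (WT) S49 cells and the Kin- variant, a mutant of the line in which protein kinase A (PKA) is known to be inactive, were left untreated (0 h) or received 8-CPT-cAMP, a cell-permeable analog of cAMP, at 100 µM for 2, 6 or 24 h. There were 26 arrays in 8 groups, 4 arrays for each untreated line and 3 for each line at each later time. No untreated arrays accompanied the later times, so every time was set against 0 h of its own line, and the comparisons of a line share those arrays. No label says whether the arrays within a group hold RNA of separate cultures, so the spread behind every p-value may be technical.

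Cytokines bind receptor chains that carry Janus kinases (JAKs), and the activated kinases phosphorylate the receptor and STAT transcription factors, which then enter the nucleus. Genes of the SOCS family are classical STAT targets, and their proteins close a negative feedback loop: Socs1 and Socs3 proteins inhibit the kinases directly, while the proteins of Cish and Socs2 bind phosphorylated sites on receptors. All carry a SOCS box that recruits an Elongin-Cullin ubiquitin ligase. In T cells Socs1 is best known as a brake on interferon gamma signalling and Socs3 as a brake on receptors that use the gp130 chain. PKA, when activated by cAMP, phosphorylates CREB, which binds the cAMP response element (CRE) in promoters.

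Promoter sequences were available for 3 of the 4 members in the RefSeq table used here (mouse build GRCm38.p6), all but Socs2. The 250 bases before the annotated start are shown for Socs1 and Socs3, the members whose messages changed, because these stretches were searched for the elements of the pathways named above. Both genes lie on the minus strand, with the window of Socs1 at chr16:10785537-10785786 and that of Socs3 at chr11:117969367-117969616, and each run is written 5′ to 3′ on the strand of its gene, with matches to the searched motifs in capitals.
Socs1: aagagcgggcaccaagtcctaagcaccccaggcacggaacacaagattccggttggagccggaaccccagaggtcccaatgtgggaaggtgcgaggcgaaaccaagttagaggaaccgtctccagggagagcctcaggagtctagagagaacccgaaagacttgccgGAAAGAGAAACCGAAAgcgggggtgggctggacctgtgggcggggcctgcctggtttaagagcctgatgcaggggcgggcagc
Socs3: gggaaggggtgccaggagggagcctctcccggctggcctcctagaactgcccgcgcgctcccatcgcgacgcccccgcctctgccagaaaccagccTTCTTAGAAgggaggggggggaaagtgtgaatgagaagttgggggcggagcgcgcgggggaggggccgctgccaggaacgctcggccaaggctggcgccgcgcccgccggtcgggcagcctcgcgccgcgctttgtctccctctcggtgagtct
The motifs, searched on both strands, were the STAT motif TTCNNNGAA, the CRE TGACGTCA, the shorter element TGACG that lies within it, and GAAA followed after any 2 bases by another GAAA, a pattern of interferon response elements that was added after the sequences had been seen. Socs1 held 2 overlapping matches to the paired GAAA, which began 83 and 77 bases before the start, and no match to the other 3 motifs. Of all 32851 promoter windows in the table, 2.98% held the paired GAAA. Socs3 held 1 match to the STAT motif, beginning 154 bases before the start, and 7.02% of all windows held that motif. Neither window held TGACGTCA or TGACG, which 1.55% and 17.8% of all windows held. The window of Cish held 1 match to TGACG, 97 bases before the start, and none to the other 3 motifs. A match describes letters and is not a measured site of binding, and a window without a match says nothing about a factor.

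Values below are levels in log2 units, the square root of the deposited scores. The scale of those scores was not given in the sources used here, and reading the square root as log2 intensity is an assumption made from its range of 0.612 to 16.4. Under that reading a change of 1 unit is a factor of 2. Levels are compared for a probe set across arrays only, since probe sets differ in brightness for reasons other than the amount of message. The median level of all probe sets was 5.47 and the lower quartile 3.09. The suffixes _x_at and _s_at mark probe sets with probes that can match more than 1 transcript, so those values can include related sequences.

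The arrays also fell into 2 sets by their number in the labels. Of the variance within groups, 35.5% lay along a first component on which the 10 arrays numbered 1 to 14 and the 16 numbered 16 to 47 did not overlap. Each treated group held 1 array of the lower numbers and 2 of the higher ones, each untreated group 2 of each, so results are given for all arrays, with this set as a term, and within each set where it matters. Crem, a standard cAMP-induced gene, checked the labels: its level in WT was 4.14 ± 0.07 (SD, n = 4) at 0 h and 10.21 ± 0.74 (n = 3) at 2 h, against 4.16 ± 0.32 (n = 4) and 4.21 ± 0.08 (n = 3) in Kin-. Of the T-cell markers measured, 8 of 9 lay above the median of all probe sets, all but Cd5 at 3.19. Of B-cell, myeloid, NK and fibroblast markers 0 of 4, 1 of 5 (Csf1r), 0 of 3 and 0 of 4 did by their mean over all arrays. The fibroblast marker Pdgfrb was an exception by line, at 6.50 in untreated Kin- and 3.38 in untreated WT. The messages come from whole cultures, in which fewer cells of a type and less RNA per cell cannot be told apart.

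Socs1 rose early and briefly in WT cells. In WT its level on the 4 untreated arrays (numbers 1, 13, 16 and 36) was 3.53, 3.20, 3.83 and 3.58. At 2 h it was 5.05, 5.14 and 5.30, so every array at 2 h stood above every untreated array, by more than 1 unit. At 6 h the values were 3.80, 3.93 and 3.83 and at 24 h 3.80, 3.87 and 4.11, back at the upper edge of the untreated range and overlapping it. The change at 2 h was 1.63 ± 0.23 log2 units (SE; 95% interval 1.16 to 2.10; adjusted p = 2.25e-05, limma with Benjamini-Hochberg adjustment over all probe sets). Between 2 and 6 h it fell by 1.31 ± 0.24 log2 units (limma adjusted p = 0.000923). Against 0 h the differences at 6 h and 24 h were 0.32 ± 0.23 (adjusted p = 0.441, limma) and 0.39 ± 0.23 (adjusted p = 0.245, limma) and did not pass the threshold of 0.05. Array set and single arrays left the 2 h rise standing: it was 1.64 with the array set as a term, 1.51 in arrays 16 to 47 alone (adjusted p = 0.00265, limma), and 1.52 to 1.73 when each array was left out in turn. In arrays 1 to 14 alone, which leave 2 residual degrees of freedom, it was as large, 1.68, with an adjusted p of 0.0892 (limma). At the same time the summed level of the 3 NK markers was 7.13 to 8.11, against 7.16 to 7.19 at 0 h, and that of the 4 fibroblast markers 14.1 to 15.6, against 13.8 to 14.2; their part in the result was not tested.

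In Kin- cells no rise of Socs1 was seen. The untreated arrays (numbers 5, 14, 40 and 44) read 3.76, 3.42, 3.06 and 2.43, the widest spread of any group for this gene. Values were 3.30, 2.88 and 3.27 at 2 h, 3.22, 2.92 and 3.28 at 6 h, and 2.97, 3.09 and 2.41 at 24 h, all within the untreated range except the array at 2.41. These levels lie near the lower quartile of all probe sets, 3.09, where a small change or a fall may not be detectable. The changes from 0 h were −0.02 ± 0.23 (95% interval −0.49 to 0.45), −0.03 ± 0.23 and −0.35 ± 0.23, each with a limma adjusted p of 1. The 2 h responses of the lines differed by 1.65 ± 0.32 (95% interval 0.98 to 2.31; limma adjusted p = 0.00198). Within arrays 16 to 47 this difference was 1.19 ± 0.36 (adjusted p = 0.0648, limma) and within arrays 1 to 14 it was 1.97 ± 0.33 (adjusted p = 0.156, limma), so neither set alone passed. At 24 h the responses differed by 0.74 ± 0.32 (adjusted p = 0.121, limma), and without Kin- array 44, the lowest untreated array, by 0.98 (adjusted p = 0.00834, limma).

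The lines were also set against each other before treatment. The summed level of the 4 fibroblast markers was 15.6 to 19.4 in untreated Kin- and 13.8 to 14.2 in untreated WT, and its part in the differences between the lines was not tested. Untreated Socs1 in Kin- differed from WT by −0.37 ± 0.21 (adjusted p = 0.596, limma), and the groups overlapped. The array sets disagreed in sign: the difference was −0.96 ± 0.26 (adjusted p = 0.0627, limma) in arrays 16 to 47 and 0.23 ± 0.19 (adjusted p = 0.527, limma) in arrays 1 to 14. Ordered by mean level, the groups for Socs1 ran from WT at 2 h (5.16 ± 0.13) through WT at 24 h (3.93 ± 0.17), 6 h (3.85 ± 0.07) and 0 h (3.53 ± 0.26) to Kin- at 0 h (3.17 ± 0.57), 2 h (3.15 ± 0.23), 6 h (3.14 ± 0.19) and 24 h (2.82 ± 0.36). Below WT at 2 h, every neighbouring pair in that order overlapped.

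**Figure D1:**
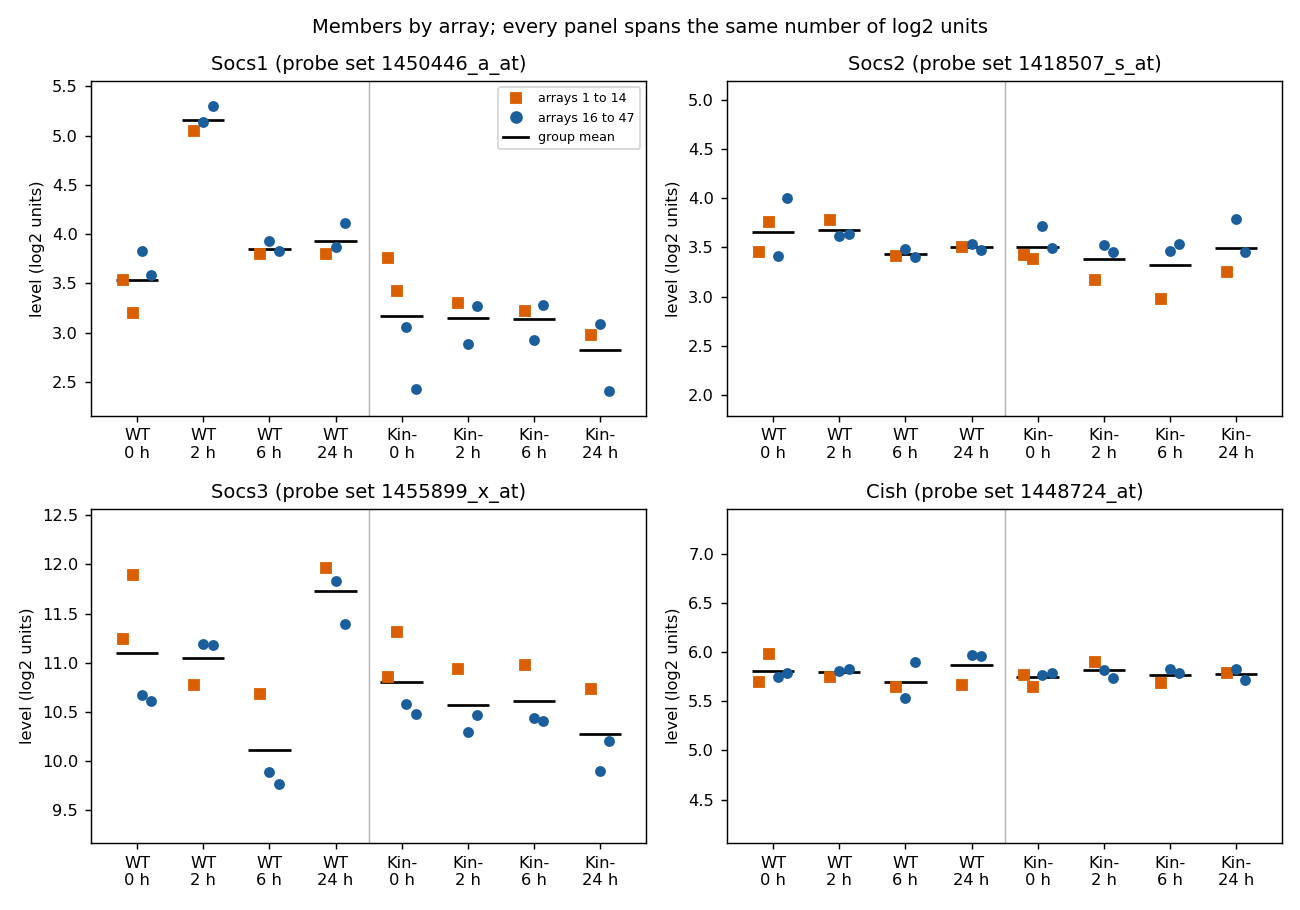
Level (log2 units) of the brightest probe set of each member on every array, by line and hours of analog, with squares for arrays 1 to 14, circles for arrays 16 to 47 and a bar at each group mean. Socs1 stands out at 2 h in WT, where its 3 arrays lie between 5.05 and 5.30, Socs3 moves at 6 and 24 h in WT and splits by array set, and Socs2 and Cish stay level.

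Socs3 followed another course, lower at 6 h and high again at 24 h in WT. On its brightest probe set (1455899_x_at) the untreated WT arrays split by set, at 11.24 and 11.89 for arrays 1 and 13 and at 10.67 and 10.61 for arrays 16 and 36. At 2 h the values were 10.77, 11.19 and 11.18, within the untreated range. At 6 h they were 10.68, 9.89 and 9.77, below 0 h but for the overlap of array 3, at 10.68, with the lowest untreated arrays. At 24 h they were 11.96, 11.83 and 11.39, above every array at 2 h and 6 h and overlapping those at 0 h. The share of all probe sets that separate like this between 24 h and 2 h or 6 h was not computed. Socs3 fell by 0.99 ± 0.30 log2 units at 6 h against 0 h (95% interval −1.61 to −0.37; limma adjusted p = 0.0214) and rose by 1.61 ± 0.32 from 6 to 24 h (95% interval 0.95 to 2.28; limma adjusted p = 0.000876). Changes from 0 h were −0.06 ± 0.30 at 2 h (adjusted p = 0.92, limma) and 0.62 ± 0.30 at 24 h (adjusted p = 0.14, limma), and neither passed. The step from 2 to 6 h, −0.93 ± 0.32, missed the threshold (adjusted p = 0.0591, limma).

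The array set moved with these Socs3 values, since untreated WT arrays 1 and 13 had a mean of 11.57 and arrays 16 and 36 of 10.64. With the set as a term the change at 6 h was −0.90 ± 0.20 (adjusted p = 0.00212, limma), that at 24 h 0.71 ± 0.20 (adjusted p = 0.00871, limma) and that from 2 to 6 h −0.93 ± 0.22 (adjusted p = 0.0044, limma), all past the threshold. Arrays 16 to 47 alone leave 2 arrays in each WT group. There the change was 0.55 ± 0.14 at 2 h (adjusted p = 0.0196, limma), −0.81 ± 0.14 at 6 h (adjusted p = 0.00161, limma) and 0.97 ± 0.14 at 24 h (adjusted p = 0.000227, limma). In arrays 1 to 14 alone the changes were −0.80 ± 0.39, −0.89 ± 0.39 and 0.39 ± 0.39, and none of these 3 passed. The value at 2 h thus had opposite signs in the 2 sets, whereas those at 6 h and 24 h kept theirs. The 6 h call over all arrays also rested on single arrays: it was lost without WT array 1 (−0.94, adjusted p = 0.0524, limma), array 13 (−0.72, adjusted p = 0.0891, limma), array 18 (−0.88, adjusted p = 0.101, limma) or array 38 (−0.81, adjusted p = 0.124, limma). The rise from 6 to 24 h passed without any of the 6 arrays in turn, at 1.44 to 1.89. At 24 h a call appeared without array 13 (0.89, adjusted p = 0.0202, limma). With the series of array numbers as a replicate block the change at 24 h was 0.70 (adjusted p = 0.0287, limma) and that from 2 to 6 h −0.93 (adjusted p = 0.0119, limma), both past the threshold.

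The other Socs3 probe sets followed the same course, with some different calls. Over the 26 arrays the 3 probe sets correlated at 0.96 to 0.97, and at 0.92 to 0.95 once group means were removed, as a description of probes that read the same arrays and the same message. The rise from 6 to 24 h passed on each: 1.54 ± 0.35 on 1456212_x_at (adjusted p = 0.00283, limma) and 1.78 ± 0.34 on 1416576_at (adjusted p = 0.00068, limma). The difference at 6 h was −0.79 ± 0.32 (adjusted p = 0.104, limma) and −0.86 ± 0.32 (adjusted p = 0.0671, limma) and missed the threshold on both, and passed on both with the array set as a term, at −0.69 (adjusted p = 0.0271, limma) and −0.78 (adjusted p = 0.0291, limma). At 24 h against 0 h, 1416576_at passed (0.92 ± 0.32, adjusted p = 0.0343, limma) and 1456212_x_at did not (0.75 ± 0.32, adjusted p = 0.0974, limma).

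**Figure D2:**
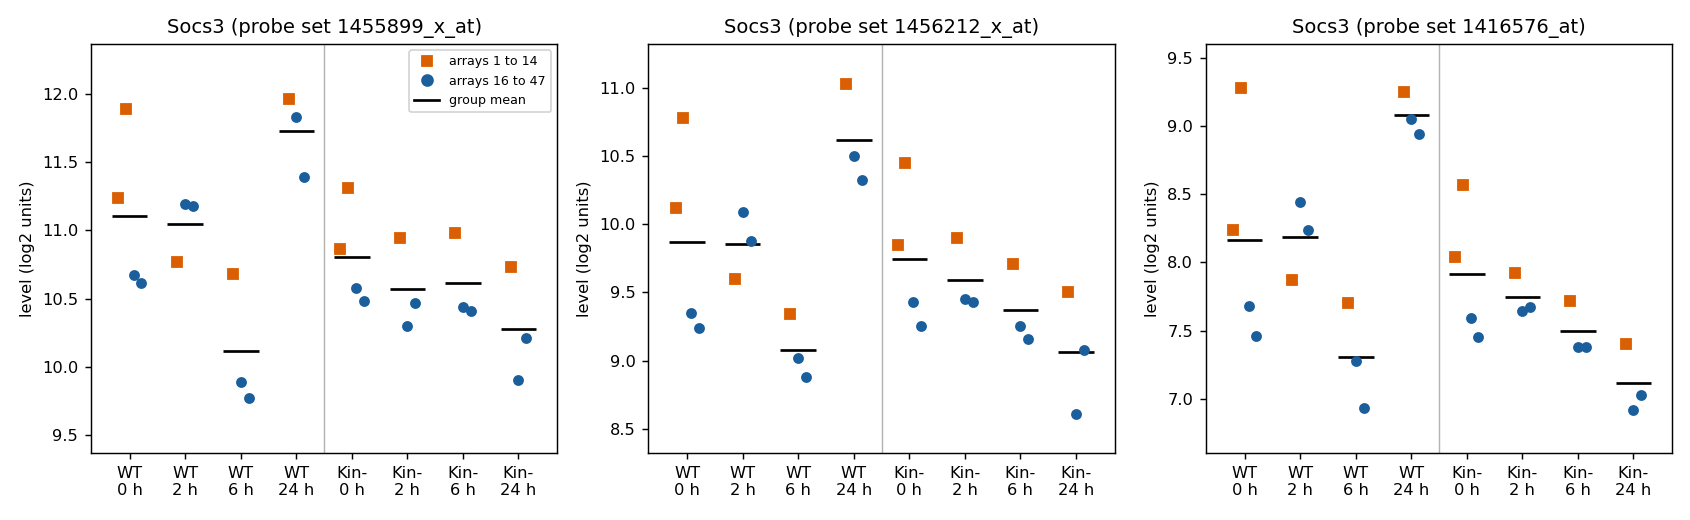
Level (log2 units) of the 3 Socs3 probe sets on every array, by line and hours of analog, with squares for arrays 1 to 14, circles for arrays 16 to 47 and a bar at each group mean. Each panel shows the same dip at 6 h and high point at 24 h in WT, and squares above circles in all groups but WT at 2 h.

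Socs3 in Kin- showed no such rebound. Its untreated arrays read 10.86, 11.31, 10.58 and 10.48, followed by 10.94, 10.30 and 10.47 at 2 h and 10.98, 10.44 and 10.41 at 6 h. At 24 h the values were 10.73, 9.90 and 10.21, the lowest mean of the line, and they overlapped those at 0 h. The changes were −0.24 ± 0.30, −0.19 ± 0.30 and −0.53 ± 0.30, each with a limma adjusted p of 1. The unadjusted p at 24 h was 0.0931 on this probe set and 0.0483 and 0.0225 on 1456212_x_at and 1416576_at. On 1416576_at, 1 of the 3 Socs3 probe sets, the Kin- arrays at 24 h (6.92 to 7.40) did not overlap those at 0 h (7.45 to 8.57), a separation in either direction seen for 2.36% of probe sets. The WT and Kin- responses at 24 h differed by 1.15 ± 0.42 (95% interval 0.27 to 2.03; adjusted p = 0.0588, limma) on the brightest probe set, by 1.43 ± 0.46 (adjusted p = 0.0283, limma) on 1456212_x_at and by 1.71 ± 0.45 (adjusted p = 0.008, limma) on 1416576_at. With the array set as a term the first of these was 1.15 ± 0.29 (adjusted p = 0.00417, limma), with the replicate block 1.18 (adjusted p = 0.0129, limma), and within arrays 16 to 47 it was 1.45 ± 0.19 (adjusted p = 0.000294, limma). At 6 h the responses differed by −0.79 ± 0.42 (adjusted p = 0.329, limma), and at 2 h by 0.18 ± 0.42 (adjusted p = 0.87, limma). Within arrays 16 to 47 both passed, at −0.71 ± 0.19 (adjusted p = 0.0355, limma) and 0.69 ± 0.19 (adjusted p = 0.0494, limma), while within arrays 1 to 14 they were −0.78 ± 0.55 and −0.65 ± 0.55 and did not pass.

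By mean level the Socs3 groups ran from WT at 24 h (11.73 ± 0.30), 0 h (11.10 ± 0.60) and 2 h (11.05 ± 0.24) through Kin- at 0 h (10.81 ± 0.37), 6 h (10.61 ± 0.32), 2 h (10.57 ± 0.33) and 24 h (10.28 ± 0.42) to WT at 6 h (10.11 ± 0.49). Each neighbouring pair in that order overlapped, while the ends of the order, WT at 24 h and at 6 h, did not. The ends were picked as the highest and lowest means, so their separation adds no support, and no share of all probe sets was computed for it. Some markers of other cell types moved with these times. In WT the summed level of the 5 myeloid markers was 20.4 to 20.9 at 0 h and 21.3 to 23.6 at 24 h, mostly through Itgam, from 4.50 to 6.61, while Cd14 stayed at 1.72 and 1.71. The 3 NK markers summed to 7.16 to 7.19 at 0 h and 7.25 to 8.56 at 24 h, with Nkg7 at 2.22 and 2.85. The 4 fibroblast markers summed to 13.8 to 14.2 at 0 h, 16.6 to 17.3 at 6 h and 15.1 to 15.4 at 24 h, and the part of these shifts in the Socs3 values was not tested.

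Cish, the founding member of the family and a STAT5 target, stayed level. Its probe set (1448724_at) read between 5.53 and 5.98 on all 26 arrays, with group means from 5.69 ± 0.19 in WT at 6 h to 5.86 ± 0.18 in WT at 24 h. Every group overlapped every other. The changes in WT were −0.01 ± 0.09 at 2 h (95% interval −0.19 to 0.17), −0.12 ± 0.09 at 6 h (−0.30 to 0.07) and 0.06 ± 0.09 at 24 h (−0.13 to 0.24), with limma adjusted p of 0.956, 0.485 and 0.839. In Kin- they were 0.07, 0.02 and 0.03, with intervals between −0.16 and 0.25. These intervals exclude a change as large as that of Socs1 at 2 h in the same WT arrays. A narrow call appeared for WT at 24 h against 6 h without array 4 (0.27, adjusted p = 0.0438, limma), against 0.17 ± 0.09 over all arrays (adjusted p = 0.269, limma).

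Socs2, best known as the feedback inhibitor of growth hormone signalling, passed no comparison either. Its brighter probe set (1418507_s_at) read 3.45, 3.76, 3.41 and 4.00 in untreated WT. It read 3.78, 3.62 and 3.64 at 2 h, 3.41, 3.48 and 3.40 at 6 h, and 3.50, 3.53 and 3.47 at 24 h. The untreated arrays spanned all later WT values but the 3.40, so each later group overlapped them. The changes were 0.02 ± 0.15 (95% interval −0.29 to 0.33), −0.23 ± 0.15 (−0.54 to 0.08) and −0.16 ± 0.15 (−0.46 to 0.15), with limma adjusted p of 0.936, 0.386 and 0.58. In Kin- they were −0.13, −0.18 and −0.01, each with a limma adjusted p of 1. The dimmer probe set (1449109_at) lay below the lower quartile of all probe sets on every array, between 2.58 and 2.87, a level at which a change may not be detectable.

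**Figure D3:**
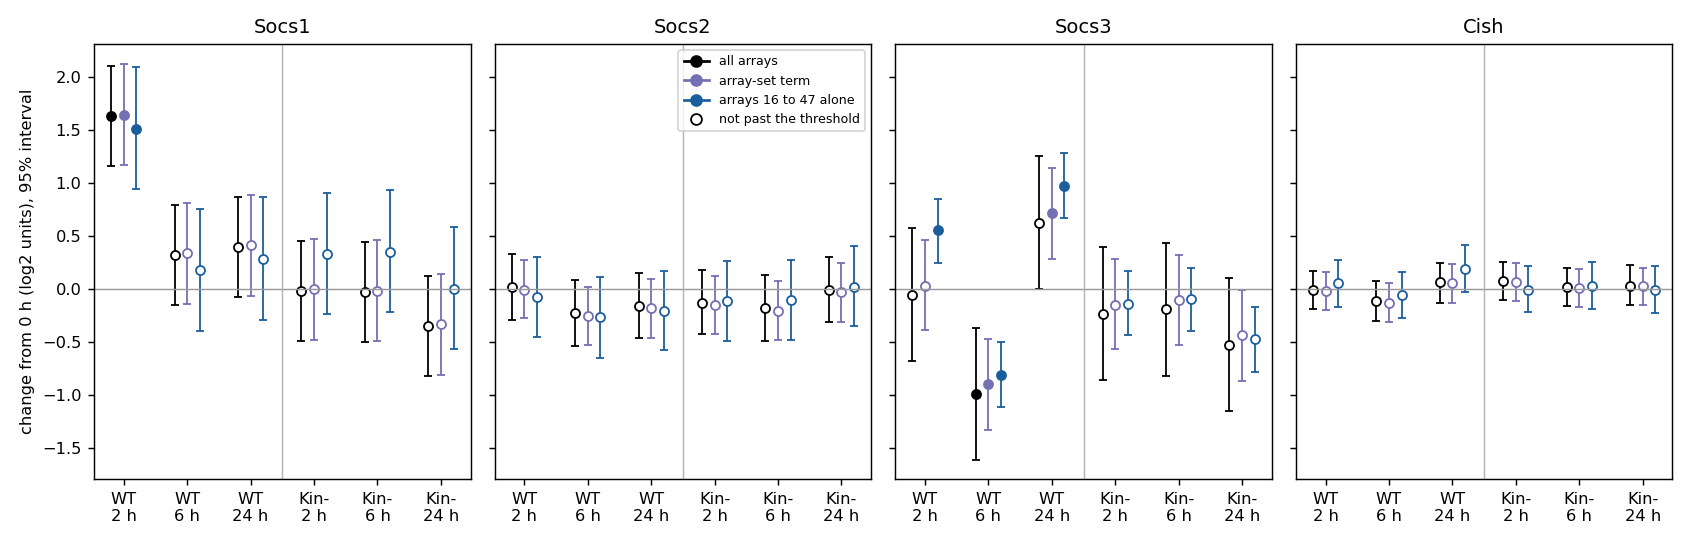
Change from 0 h (log2 units) of each member's brightest probe set with its 95% interval, by line and time, for all arrays, with the array set as a term, and for arrays 16 to 47 alone; filled points passed an adjusted p of 0.05 and open ones did not. Socs1 is filled at 2 h in WT in all 3 fits, Socs3 at 6 h in all 3, at 24 h in the 2 that account for the array set and at 2 h in arrays 16 to 47 alone, and Kin- has no filled point.

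Counted by comparison, with the brightest probe set for each gene, 1 of the 4 members passed at 2 h (Socs1), 1 at 6 h (Socs3) and 0 at 24 h in WT. Over all 22626 probe sets 14.4%, 19.6% and 30.0% passed in these comparisons, and by gene 15.7%, 22.2% and 32.5%, so a single member of 4 is near that background and the counts say nothing particular about the family. From 2 to 6 h and from 6 to 24 h 1 of 4 passed each time, Socs1 and then Socs3, against 13.0% and 17.8% of probe sets. In Kin- 0 of 4 passed at each time, where 0% of probe sets passed in limma. At an unadjusted p under 0.05 there were 489, 429 and 491 probe sets at 2, 6 and 24 h, and with the series of array numbers as a block limma passed 2, 0 and 0. Between the untreated lines 0 of 4 passed, against 3.01% of probe sets. For the difference of WT and Kin- responses 1 of 4 passed at 2 h (Socs1), 0 at 6 h and 0 at 24 h, against 6.92%, 10.8% and 21.5%. The arrays of WT at 2 h did not overlap those at 0 h for 1 of 4 members, Socs1, a separation seen for 21.9% of probe sets. With the array set as a term limma passed 19.0%, 24.1% and 34.0% of probe sets in WT at 2, 6 and 24 h, 22.9% from 2 to 6 h, and 11.6%, 16.4% and 26.7% for the differences of responses at these times. In arrays 16 to 47 alone these shares were 20.4%, 21.3% and 31.8%, then 23.7%, then 10.7%, 14.1% and 25.2%. The calls of Socs3 that appear in these fits stand against that wider background.

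The family has 4 more genes, Socs4 to Socs7, whose proteins share the SOCS box and are less tied to cytokine receptors. Socs4 changed in WT: its brightest probe set (1421275_s_at) was 5.22 ± 0.10 at 0 h (SD, n = 4), 6.13 ± 0.53 at 2 h, 5.28 ± 0.05 at 6 h and 4.25 ± 0.19 at 24 h (n = 3 each). It rose by 0.91 ± 0.17 at 2 h (adjusted p = 0.000654, limma) and fell by 0.97 ± 0.17 at 24 h (adjusted p = 9.98e-05, limma), and at neither time did its range overlap that at 0 h. Such a separation, in either direction, was seen for 21.9% of probe sets at 2 h and 31.6% at 24 h. All 3 Socs4 probe sets passed at 2 h, and at 24 h 1421273_at also passed (−1.10 ± 0.11, adjusted p = 6e-08, limma) but 1421274_at did not (−0.12 ± 0.20, adjusted p = 0.862, limma). In Kin- its level stayed between 5.46 and 5.67 in the means of the 4 groups. Socs5, Socs6 and Socs7 passed none of the WT times over all arrays, with changes of 0.18, 0.56 and 0.06 at 2 h (limma adjusted p of 0.208, 0.0895 and 0.502). With the array set as a term Socs6 passed at 2 h (0.48, adjusted p = 0.00172, limma) and 24 h (0.43, adjusted p = 0.00197, limma).

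The rest of the pathway was read from lists of genes by role, with 1 probe set for each gene; counts are of genes past an adjusted p of 0.05, beside 7.25%, 11.0% and 16.3% of all genes higher in WT at 2, 6 and 24 h and 8.44%, 11.1% and 16.3% lower. The median change of all genes was 0.05, −0.03 and −0.01. Among 25 measured cytokine ligands, 3 rose and 1 fell at 2 h, 1 and 1 at 6 h, and 2 and 1 at 24 h, and the list medians were 0.07, −0.03 and −0.01. Ifng, the interferon that Socs1 restrains, was at 2.66 ± 0.01 (n = 4) at 0 h and 6.14 ± 2.14 (n = 3) at 2 h, with arrays from 3.76 to 7.89. Its rise at 2 h was 3.48 ± 0.80 (adjusted p = 0.00418, limma), and at 6 h 2.49 ± 0.80 (adjusted p = 0.0313, limma). The arrays at 2 h scattered widely, so the size of that change is poorly fixed. The untreated level of Ifng also lay below the lower quartile of all probe sets, 3.09. For the difference of WT and Kin- responses 0, 0 and 2 of the 25 ligands passed as higher in WT and 1 as lower at each time. Ifng therefore did not pass there at 2 h or 6 h. In Kin- 0 of 25 passed at each time. Il10, an interleukin that signals through Stat3, fell by 2.62, 4.66 and 3.87 log2 units at the 3 times, from 7.68 ± 0.52 at 0 h to 3.02 ± 0.19 at 6 h.

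Among the receptor chains most did not pass in WT, and those with the largest changes were chains for interferons and interleukin 12, named after their values were seen. Of 31 chains measured 8 rose and 1 fell at 2 h, 6 and 0 at 6 h, and 10 and 0 at 24 h, with list medians of 0.05, −0.02 and 0.05. Ifngr1, the ligand-binding chain for interferon gamma, went from 8.69 ± 0.16 (n = 4) to 11.21 ± 0.06 (n = 3) at 2 h and 11.96 ± 0.36 (n = 3) at 24 h, changes of 2.53 ± 0.18 (adjusted p = 2.54e-09, limma) and 3.28 ± 0.18 (adjusted p = 1.76e-11, limma). Its partner Ifngr2 rose by 2.51, 2.65 and 2.04 at the 3 times, and Ifnar1, a chain of the type I interferon receptor, by 2.16, 2.23 and 2.66. Ifnar2, the other chain of that receptor, rose by 0.66 at 2 h (adjusted p = 0.00374, limma) and 0.53 at 24 h (adjusted p = 0.00865, limma), and its 0.23 at 6 h did not pass. For interleukin 12, Il12rb2 rose by 1.82, 1.42 and 1.68, and Il12rb1 by 2.40 at 6 h and 2.69 at 24 h. The gp130 chain Il6st, which Socs3 protein binds, rose by 1.01 ± 0.21 at 24 h (adjusted p = 0.000565, limma), and so did Il10rb (1.16) and Crlf2 (1.10). Il15ra was the chain that fell at 2 h (−0.55 ± 0.12, adjusted p = 0.00355, limma). In Kin- 0 of 31 passed at each time, as did 0% of all probe sets. For the difference of WT and Kin- responses 5, 6 and 8 chains passed as higher in WT at 2, 6 and 24 h, and 0 as lower.

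Among the kinases and factors below the receptors, several rose in WT. All 4 Janus kinases were measured: 2 rose at 2 h, 2 at 6 h and 4 at 24 h, and the list medians were 0.51, 0.67 and 1.31. Jak1 rose by 0.66 ± 0.13, 1.03 ± 0.13 and 1.76 ± 0.13 and Jak2 by 0.82 ± 0.15, 1.64 ± 0.15 and 2.23 ± 0.15, each with a limma adjusted p of 0.000856 or less. Jak3 (0.86) and Tyk2 (0.73) passed at 24 h. Of 7 measured STAT and partner factors 4, 5 and 6 rose at the 3 times and 0 fell, with medians of 0.40, 0.63 and 0.80. Stat3 rose by 1.81, 1.45 and 1.69 and Stat5b by 0.88, 1.26 and 1.62, and Stat2 by 1.22 at 24 h. Stat4 passed at no time, with differences of −0.05, 0.35 and 0.22. In Kin- 0 of these 11 genes passed at any time, as did 0% of all probe sets, and untreated Stat5b was lower there (−0.56 ± 0.09, adjusted p = 0.00101, limma). For the difference of WT and Kin- responses 2, 2 and 4 Janus kinases passed as higher in WT at the 3 times. Of the STAT and partner factors 2, 3 and 4 did, and 0 genes of either list passed as lower.

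Genes known as STAT targets included some of the large changes in WT. Of 22 measured 10 rose and 1 fell at 2 h, 10 and 1 at 6 h, and 8 and 1 at 24 h, with medians of 0.26, 0.18 and 0.15. At 2 h the largest changes among those that rose were in Fos (5.78 ± 0.39), Irf8 (3.33 ± 0.40), Id2 (2.57 ± 0.31) and Irf1 (2.45 ± 0.30), and Fos is also a known direct target of CREB. At 6 h the largest were in Fos (4.32 ± 0.39), Gbp2, an interferon-induced GTPase (3.97 ± 0.57), Irf8 (3.38 ± 0.40) and Gzmb, a granzyme of cytotoxic cells (2.91 ± 0.51). At 24 h they were in Gzmb (4.16 ± 0.51), Irf8 (3.54 ± 0.40), Fos (2.45 ± 0.39) and Id2 (2.11 ± 0.31). Gzmb had already risen at 2 h, by 2.23 ± 0.51. Myc, the member that fell, fell by 2.46, 2.14 and 2.12. Irf1 shared with Socs1 its highest level at 2 h, at 8.67 ± 0.17 (n = 4) untreated, then 11.12 ± 0.77, 10.12 ± 0.70 and 9.83 ± 0.64 (n = 3 each), and unlike Socs1 it still passed at 24 h (1.16 ± 0.30, adjusted p = 0.00503, limma). In Kin- 0 of 22 passed at each time, as did 0% of all probe sets. For the difference of WT and Kin- responses 7 passed as higher in WT and 1 as lower at each time. Untreated Irf8 (−2.69 ± 0.37, adjusted p = 0.000163, limma) and Ifit1 (−3.68 ± 0.54, adjusted p = 0.00032, limma) were lower in Kin- than in WT.

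A list of other negative regulators, outside the SOCS family, held 18 measured genes, most of which passed at no time. The list was drawn broadly, and not every gene in it is only or mainly a negative regulator. In WT 0 rose and 2 fell at 2 h, 4 rose and 0 fell at 6 h, and 6 rose and 0 fell at 24 h, with medians of 0.01, 0.00 and 0.08. Pias3, an inhibitor of Stat3, rose by 1.20 at 6 h and 1.90 at 24 h, and Pdlim2, a ligase for STAT4, by 1.36 and the phosphatase Ptpn6 by 1.26 at 24 h. The members that fell at 2 h were Asxl1, a chromatin factor (−1.41), and Ptpn2, a phosphatase that acts on Janus kinases (−0.42). In Kin- 0 of 18 passed at each time, as did 0% of all probe sets, and untreated Pdlim2 was lower there than in WT (−2.34 ± 0.24, adjusted p = 4.84e-06, limma). For the difference of WT and Kin- responses 0, 1 and 4 passed as higher in WT at the 3 times, and 2, 0 and 0 as lower. A list for Elongin-Cullin ligases held 6 measured genes, and not all of them, Cul2 among these, are subunits of the ligase that the SOCS box recruits. Of the 6, 1 fell at 2 h (Ube2f, −0.36), 0 at 6 h and 3 at 24 h (Cul2 by −0.70, Eloc by −0.51 and Elob by −0.37). At each time 0 rose, and the medians were 0.01, −0.06 and −0.25. For the difference of WT and Kin- responses 0, 0 and 2 passed as lower in WT. Cul5, the cullin that SOCS proteins use, was not analysed here, nor was the shared receptor chain Il2rg, since no probe set carried these symbols alone.

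**Figure D4:**
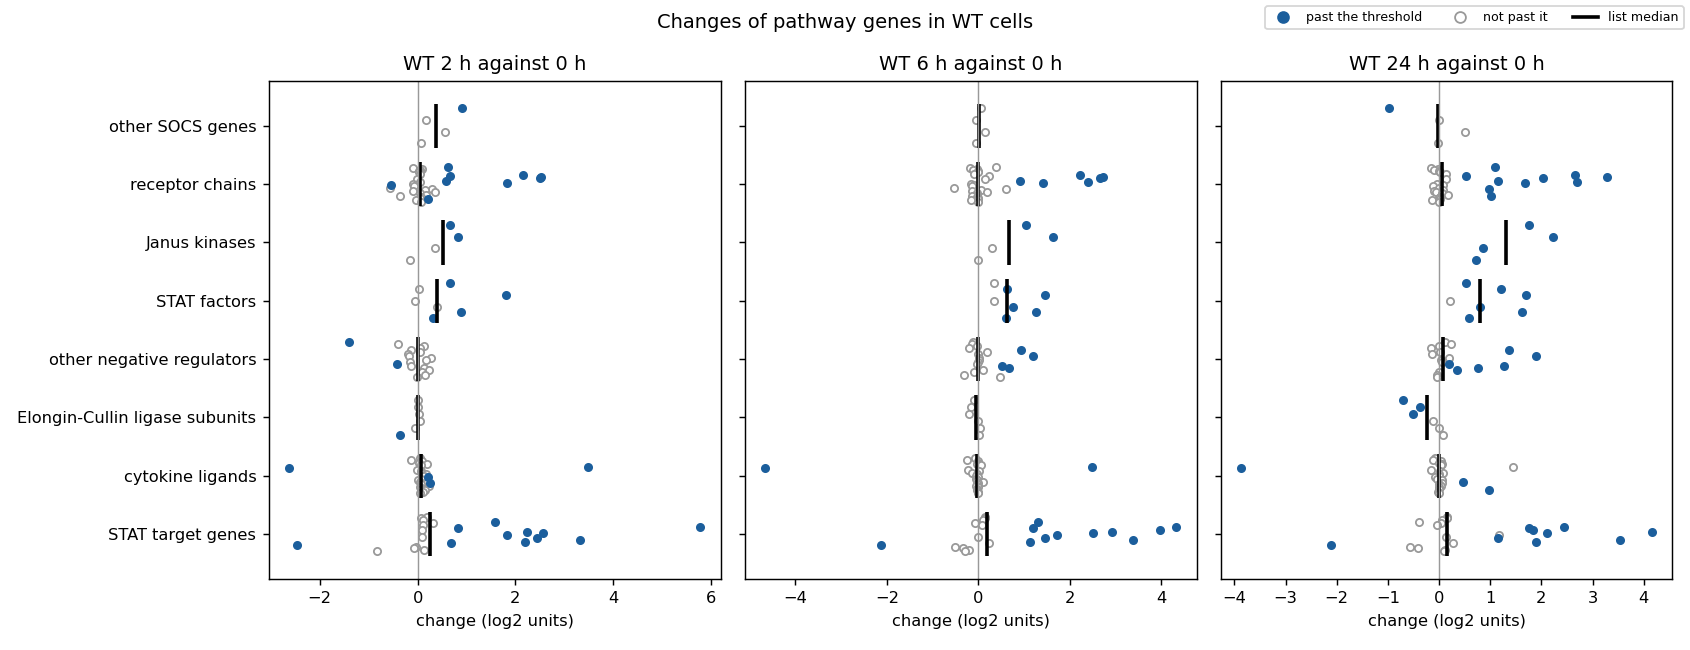
Change from 0 h in WT (log2 units) of every measured gene of 8 pathway lists at 2, 6 and 24 h, 1 point a gene, filled where the adjusted p was under 0.05, with a bar at each list's median. The medians of the Janus kinases (0.51 to 1.31) and STAT factors (0.40 to 0.80) lie to the right at all 3 times, and the other lists have medians between −0.25 and 0.37 with a few genes far out.

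Genes with a course like that of each member were sought by Pearson correlation over the 8 group means, among 2771 genes with group means spread over at least 1 unit; the points share arrays, and the values are descriptions. For Socs1 the closest were Hdgfl3 and Tfip11 (0.99), then Zfand2a, Rgcc and Zfp36 (0.97). Zfp36, which destabilises cytokine messages, changed by 3.79, 1.69 and 1.38 in WT at 2, 6 and 24 h, so it too was highest at 2 h. Over the 26 single arrays the 5 genes correlated with Socs1 at 0.78 to 0.90. For Socs3 the closest was Prkcb, a protein kinase C (0.97), with changes of −0.18, −1.33 and 0.68, followed by Trappc2l (0.94), Fhit (0.93), Smim27 and Tle2 (0.91). Over single arrays these genes correlated with Socs3 at 0.83, 0.89, 0.78, 0.83 and 0.60 in that order, so the likeness of Tle2 was weak there. For Cish and Socs2, whose group means spanned 0.17 and 0.36 units, the closest genes correlated at only 0.28 to 0.63 over single arrays, and none is named.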

How the data were processed

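Levels of messenger RNA were measured on 26 arrays in WT and Kin- S49 cells, per the labels. The authors deposited 1 table of scores; the method and scale behind it are not stated in the labels or headers. Their square root, with column medians from 5.40 to 5.53, was taken as log2 intensity, an assumption, without further normalization. Gene names came from the platform's annotation, and the brightest probe set stood for its gene. The members and lists were chosen with earlier results of these data known.

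Linear models with 1 mean for each group were fitted to 22626 probe sets in R 4.3.3 by lmFit and eBayes of limma 3.58.1, for 12 comparisons, with Benjamini-Hochberg adjustment over all probe sets and 0.05 as the threshold. For lists, genes that passed with a change of at least 1 unit were named, up to 4 for each list, direction and time, and other genes named were chosen after their values were seen. The series of consecutive array numbers was tried as a block because same-series arrays deviated together in all 36 pairs (median correlation 0.37, lowest 0.23; 0.11 and −0.05 once the array set was removed); no label says that they are paired. In simulated data for WT at 2 h over 22626 probe sets, 86.0% of changes of size 1 and 55.0% of size 0.5 were recovered. The simulated errors were independent between arrays, unlike those of the real arrays, so these shares may not hold for the data. The number of arrays limits the precision. Promoters came from RefSeq, build GRCm38.p6.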

Additional observations from a re-analysis of the deposited data

Results flagged for a closer look

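Some values for the SOCS genes stood apart from the rest of their group or differed between the lines. Cish on Kin- untreated array 14 read 5.64, below the other 3 untreated Kin- arrays, whose highest was 5.79. Socs4 (1421273_at) on WT untreated array 13 read 4.82, below the other 3, whose highest was 5.06. Chance alone sets apart about 1 in 20 groups of this size, and only groups of 4 arrays were examined this way. There were 32 such tests over 16 probe sets, so the values named here are near the number that chance alone gives.

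For the same 16 probe sets 48 differences of responses were examined, and those that passed are given here. The responses of WT and Kin- differed for Socs1 at 2 h by 1.65 log2 units (limma adjusted p = 0.00198), as given above. For Socs3 they differed at 24 h by 1.43 on 1456212_x_at (adjusted p = 0.0283, limma) and by 1.71 on 1416576_at (adjusted p = 0.008, limma). For Socs4 they differed at 2 h by 1.12 on 1421275_s_at (adjusted p = 0.00499, limma) and by 0.76 on 1421273_at (adjusted p = 0.0028, limma). At 24 h the Socs4 responses differed the other way, by −0.92 (adjusted p = 0.00744, limma) and −1.14 (adjusted p = 1.05e-05, limma) on these probe sets. On the third Socs4 probe set, 1421274_at, the differences were 0.50 (adjusted p = 0.426, limma) and −0.21 (adjusted p = 0.8, limma).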

How the results depend on the processing

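The rise of Socs1 at 2 h in WT, its fall from 2 to 6 h and the rise of Socs3 from 6 to 24 h passed under all alternatives run (power 0.75, untransformed values, quantile normalization, a filter on dim probe sets, the array set, the replicate block, array weights, each array left out) but for arrays 1 to 14 alone. That alternative and the array set together with the block were added after the data were seen. In arrays 16 to 47 alone Socs3 at 2 h turned from −0.06 to 0.55, and the number of members past the threshold at 2 h was 2 instead of 1. In arrays 1 to 14 alone that number was 0 at 2 h, at 6 h, from 2 to 6 h, from 6 to 24 h and for the difference of responses at 2 h, where 2 residual degrees of freedom remain. At 24 h in WT it was 1 in place of 0 with the array set, in arrays 16 to 47, with the replicate block (Socs3, 0.70, adjusted p = 0.0287, limma), with both together, and with array weights (Socs1, 0.50, adjusted p = 0.0278, limma). From 2 to 6 h it was 2 in place of 1 with the dim filter, the array set, arrays 16 to 47, the replicate block, array weights, and array set with block. From 6 to 24 h array weights gave 2, the second being Cish (0.20, adjusted p = 0.0381, limma), and between untreated lines they gave 1, Socs1 (−0.69, adjusted p = 0.0291, limma). The difference of responses gave 1 at 6 h in arrays 16 to 47, and 1 in place of 0 at 24 h with quantile normalization, the dim filter, the array set, arrays 16 to 47, the replicate block, and array set with block. At 2 h in arrays 16 to 47 that count stayed at 1, but the member was Socs3 (0.69, adjusted p = 0.0494, limma) and no longer Socs1. With each array left out the counts ran from 0 to 1 at 6 h, 0 to 1 at 24 h, 1 to 2 from 2 to 6 h, 1 to 2 from 6 to 24 h and 0 to 2 for the difference at 24 h. The replicate block, a series of array numbers that the labels do not call paired, had a within-series correlation of 0.305, or 0.0827 with the array set as a term, and changed no other count of members. The cause of these changes was not tested. The dim Socs2 probe set near the bottom of the range limits what can be seen there. The Socs1 probe set and the brighter Socs2 probe set, with mean levels of 3.58 and 3.50, also lay close to the lower quartile of 3.09. Small changes on them may not be detectable.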
